A study of Homo sapiens with 6 samples.

Results

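The mitochondrial ribosome is built from proteins that are encoded in the nucleus, made in the cytosol and imported into the organelle. The genes of these proteins carry the names Mrpl, for the large subunit, and Mrps, for the small subunit. They were taken from the expression table as the protein-coding genes whose name starts with Mrpl or Mrps followed by a digit, which gave 77 of the 22413 genes listed. All 6 samples were BaF3-T315I, mouse cells made to carry BCR-ABL with the T315I mutation, in 2 groups of 3. The control samples were labelled only as control, and the I13 samples received 1.1 µM of I13, a histone deacetylase inhibitor, for 48 h. When the control was taken is not given in the sources used here, and a single engineered line stands for the disease in both groups. The labels do not say whether the 3 samples of a group came from separate cultures, so the p-values measure the spread between these samples only.

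In mitochondria the ribosome translates the few mRNAs that are encoded in mitochondrial DNA, all of them for membrane subunits of the respiratory chain and ATP synthase. Its small subunit reads the mRNA, and its large subunit forms the peptide bond and is held at the inner membrane, where the new chains are inserted. Some of its proteins have a counterpart in the bacterial ribosome, and others were added during the evolution of mitochondria. The question put to the data was how the mRNAs of these proteins, and of the factors that act with them, stood in the I13 samples beside the control.

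Levels are given in FPKM, fragment numbers corrected for gene length and sequencing depth, so levels of different genes are compared per length. The library totals recovered from the FPKM lay between 16762119 and 17722950 fragments. Comparisons were made with limma on log2(FPKM + 0.1) in the 12163 genes with a mean of at least 0.5 FPKM, and a gene was called at a Benjamini-Hochberg adjusted p below 0.05 over all these genes. Because of the added 0.1, fold changes of weakly expressed genes come out too small. SE stands for the standard error of a log2 fold change. Same-numbered control and I13 samples deviated together, so the model was also fitted with that number as a block (the blocked fit). Of the markers of blood cells, Ptprc, Il3ra and Csf2rb were listed in every sample, at 9.07 FPKM or more. Csf2rb was at 239 to 463 FPKM in the control and 448 to 838 FPKM in the I13 samples. The pro-B markers Vpreb1, Igll1 and Ebf1 did not exceed 0.107 FPKM in any sample, and the pro-B marker Cd79b was at 3.57 to 6.94 FPKM. Of 9 markers of other cells, 7 were at or under 0.2 FPKM in every sample, and the summed level of the 9 was 2.11 to 2.72 FPKM in the control and 4.33 to 8.36 FPKM in the I13 samples, mostly Lyz2 and Hba-a1. The part of these markers in the results was not tested.

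In the I13 samples the mRNAs of most mitoribosomal proteins lay slightly below the control. Of the 76 genes tested, 64 had a log2 fold change below 0 and 12 above 0, and the median was -0.146, a change of -9.63%. Over all genes tested the median was -0.0053, and 50.8% of the genes had a log2 fold change below 0. No mitoribosomal gene had an adjusted p below 0.05 in limma, where 5 of all genes tested did (0.0411%), 1 of them lower (0.00822%). At an unadjusted p below 0.05, 21 of the 76 were lower, against 10.8% of all genes tested, and 1 was higher, against 7.79%. The log2 fold changes ran from -0.54 to 0.30, so none reached the 0.58 that the study used as its limit, which 9.41% of all genes tested reached. In RNA from whole cultures, fewer cells of a kind and less of this mRNA per cell cannot be told apart.

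**Figure D1:**
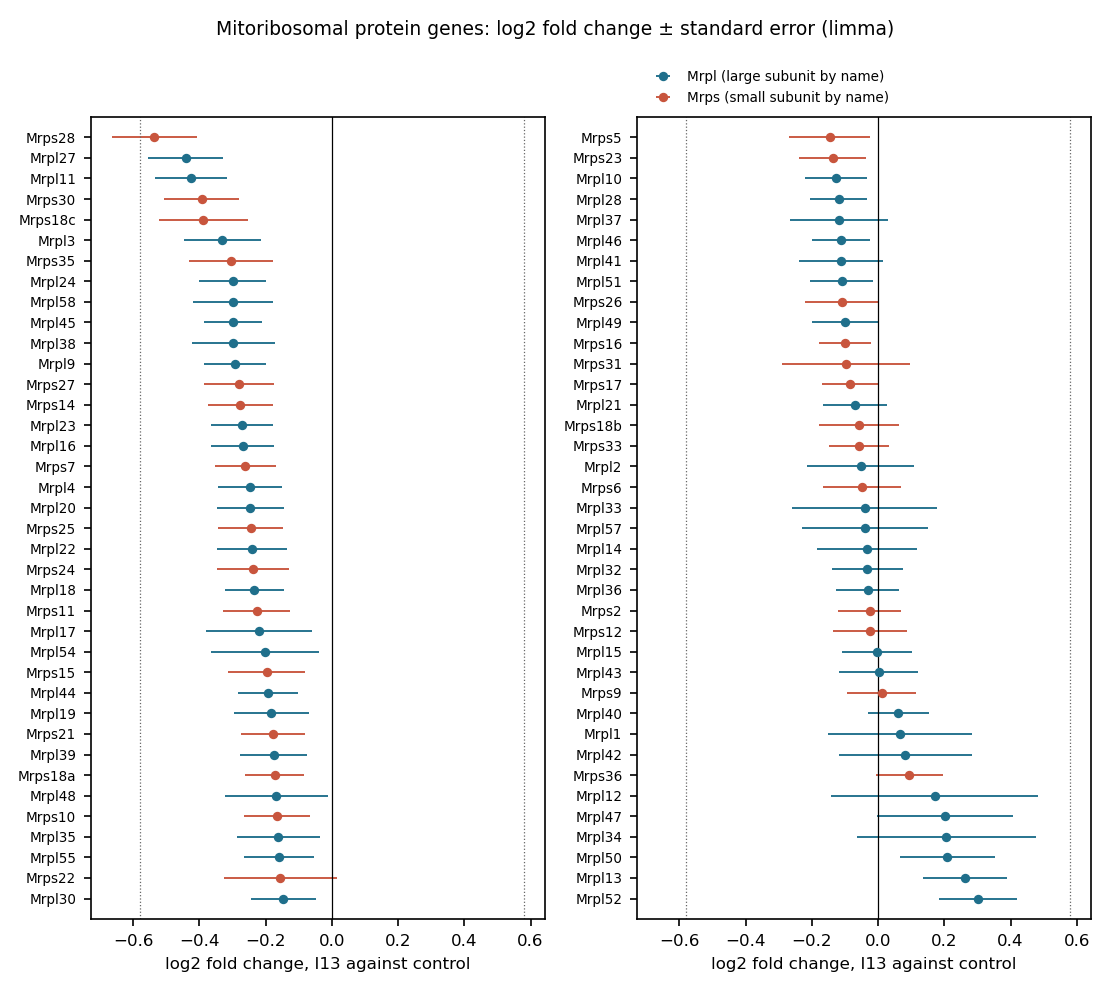
Log2 fold change (x axis, I13 against control, limma on log2(FPKM + 0.1)) of each of the 76 mitoribosomal genes tested, ordered from the lowest to the highest, with bars for the standard error and dotted lines at the study's limit of 0.58 in either direction. Points for 64 genes lie left of 0, from Mrps28 at -0.54 upwards, and those for 12 genes lie right of it, up to Mrpl52 at 0.30.

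In 31 of the 76 genes every I13 sample lay below every control, against 15.4% of all genes tested, and in 1 gene every I13 sample lay above, against 9.82%. All 21 genes that were lower at an unadjusted p below 0.05 were among those 31, but both measures come from the same values. Within the pairs of same-numbered samples, the I13 sample was the lower one in 58 genes for replicate 1, 65 for replicate 2 and 52 for replicate 3, against 46.8%, 50.0% and 56.7% of all genes tested. It was the lower one in all 3 pairs for 40 genes, against 27.3% of all genes, and the higher one in all 3 pairs for 3 genes, against 24.1%. With the replicate block, 25 genes were lower and 2 higher at an unadjusted p below 0.05, against 14.8% and 13.2% of all genes, and again none had an adjusted p below 0.05, where 2.99% of all genes did, 1.24% of all genes being lower. When voom was run on recovered fragments in the blocked design, 5 had one, Mrpl11, Mrpl3, Mrps28, Mrpl24 and Mrpl9, all lower after I13. That is close to the background, because 12.4% of all genes passed in that fit and 5.78% were lower, and none of the 5 reached the limit of 0.58, which 4.14% of all genes passed together with the adjusted p.

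Control replicates 1 and 2 carried the higher levels, and control replicate 3 lay close to the I13 samples. The median deviation of the 76 genes from their own mean over the 6 samples, on the log2 scale, was 0.129, 0.164 and -0.0248 in control replicates 1, 2 and 3 and -0.0543, -0.0391 and -0.0981 in I13 replicates 1, 2 and 3. The groups did not overlap in this value, but the gap between control replicate 3 and I13 replicate 2 was small beside the range of the controls. Over all genes tested the same value was -0.0217, 0.0553 and 0.00224 in control replicates 1, 2 and 3. In I13 replicates 1, 2 and 3 it was -0.000913, 0.043 and -0.0649. In replicate 3 all genes thus lay lower after I13 by about as much as the family did. Among the 76 genes, the number above their own mean was 56, 66 and 31 in the controls and 20, 24 and 13 in the I13 samples. In 56 of the 76 genes control replicate 3 was the lowest control. The share of all mapped fragments that fell on the 77 genes was 0.414%, 0.425% and 0.367% in the controls and 0.371%, 0.374% and 0.356% in the I13 samples, so on this measure the groups overlapped.

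**Figure D2:**
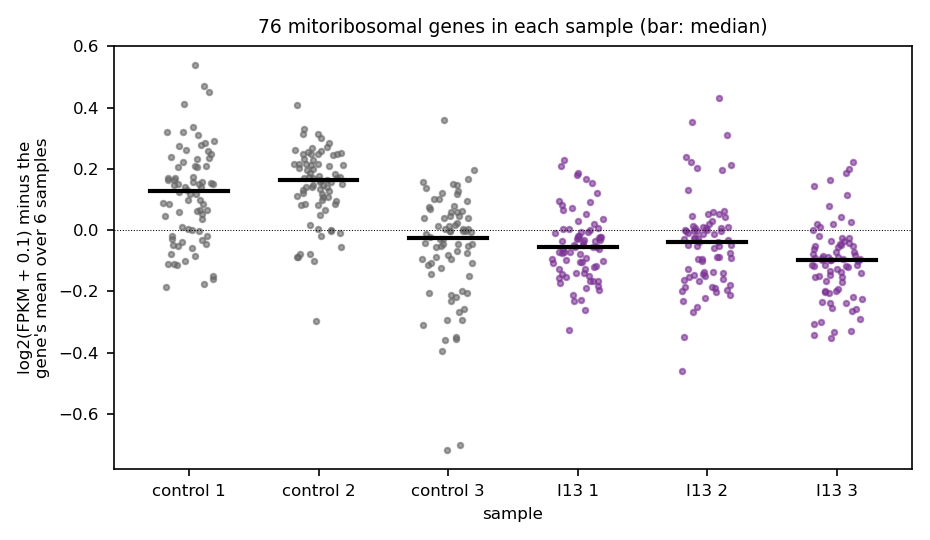
Each point is 1 of the 76 mitoribosomal genes in 1 sample, as log2(FPKM + 0.1) minus the mean of that gene over the 6 samples (y axis), with a bar at the median of each sample. The medians of control replicates 1 and 2, 0.129 and 0.164, stand above those of the other 4 samples, which lie between -0.0981 and -0.0248.

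The count of lower genes, and its distance from the background, rested on several samples and on the scaling. Without 1 sample at a time it was between 6 and 23, lowest without control replicate 2 (6), 9 without control replicate 1 or I13 replicate 1, 11 without I13 replicate 2 and 12 without I13 replicate 3, and after rescaling of the FPKM to TPM it was 9, while the median log2 fold change stayed between -0.215 and -0.115 under every alternative tried. Without control replicate 2 the 6 genes were 7.89% of the 76, against 8.23% of all genes, so the share was at the background. Without control replicate 1 and without I13 replicates 1, 2 and 3, 7.42%, 6.73%, 8.5% and 9.84% of all genes were lower, and after rescaling to TPM 8.11%, against 11.8% to 15.8% of the 76. In the blocked fit without pair 2, 5 of the 76 were lower (6.58%), against 6.91% of all genes.

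The 10 genes with the smallest p were all lower in I13, and in each of them all I13 values were under all control values. Mrps28, a protein of the small subunit, had 55.1, 58.5 and 46.5 FPKM in control replicates 1, 2 and 3 and 37.5, 32.0 and 40.7 FPKM in the I13 replicates. Its log2 fold change of -0.54 was the lowest of the family (SE 0.13, limma adjusted p 0.12). The spread within each group was under the distance between the groups, and the level after I13 was 0.69 of that in the control.

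Mrpl11 forms the base of the stalk of the large subunit, to which translation factors bind. It was at 34.1, 35.2 and 28.4 FPKM in the controls and at 25.1, 24.4 and 22.9 FPKM after I13. The log2 fold change was -0.42 (SE 0.11, limma adjusted p 0.127, or 0.052 in the blocked fit). Every I13 sample thus lay below the lowest control, control replicate 3. Mrpl10, which anchors the stalk, was at 40.4, 34.5 and 35.1 FPKM in the controls and at 33.7, 33.8 and 32.9 FPKM after I13, a log2 fold change of -0.13 (SE 0.09). The groups of Mrpl10 did not overlap either, although control replicate 2 was barely above the I13 samples. Mrpl12, the flexible stalk protein itself, was at 37.6, 24.4 and 15.7 FPKM in the controls and at 21.5, 33.0 and 28.9 FPKM after I13. The I13 samples of Mrpl12 lay inside the range of the controls, and its log2 fold change of 0.17 (SE 0.31) was -0.145 without control replicate 3.

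The bacterial counterpart of Mrpl27 reaches with its tail towards the site of peptide bond formation. Mrpl27 was at 10.9, 10.6 and 12.4 FPKM in the controls and at 8.24, 9.09 and 7.60 FPKM after I13, with a log2 fold change of -0.44 (SE 0.11, limma adjusted p 0.128). Control replicate 3 was the highest of its controls, unlike in most genes of the family. Mrpl27 rested on 131 to 216 fragments in a library.

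Mrpl45, which helps to hold the ribosome at the inner membrane, was at 29.6, 32.3 and 31.0 FPKM in the controls and at 24.6, 24.1 and 26.9 FPKM after I13. Its log2 fold change was -0.30 (SE 0.09, limma adjusted p 0.158). Mrpl23 and Mrpl24 lie at the exit of the tunnel for the new chain, as does Mrpl47, whose log2 fold change was 0.20. Mrpl24 went from 29.0 ± 1.99 FPKM in the control to 23.6 ± 1.89 FPKM after I13 (SD, n = 3 each), with a fold change on the log2 scale of -0.30 (SE 0.10). Mrpl23 had 8.62, 8.43 and 8.73 FPKM in the controls and 6.73, 7.60 and 7.02 FPKM after I13, with an SD among its controls of only 0.0249 on the log2 scale. A processed pseudogene named Mrpl23-ps1 was listed at 2.15 to 3.52 FPKM, and how fragments common to the gene and this copy were counted is not given in the sources used here.

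Mrpl9, a large subunit protein with a bacterial counterpart, was at 23.3 ± 1.66 FPKM in the control and 19.0 ± 1.01 FPKM after I13 (SD, n = 3 each). Mrps7, which lies in the head of the small subunit, was at 42.4 ± 2.48 and 35.4 ± 2.32 FPKM (SD, n = 3 each). Their log2 fold changes were -0.29 and -0.26, with adjusted p values of 0.181 and 0.204 from limma.

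**Figure D3:**
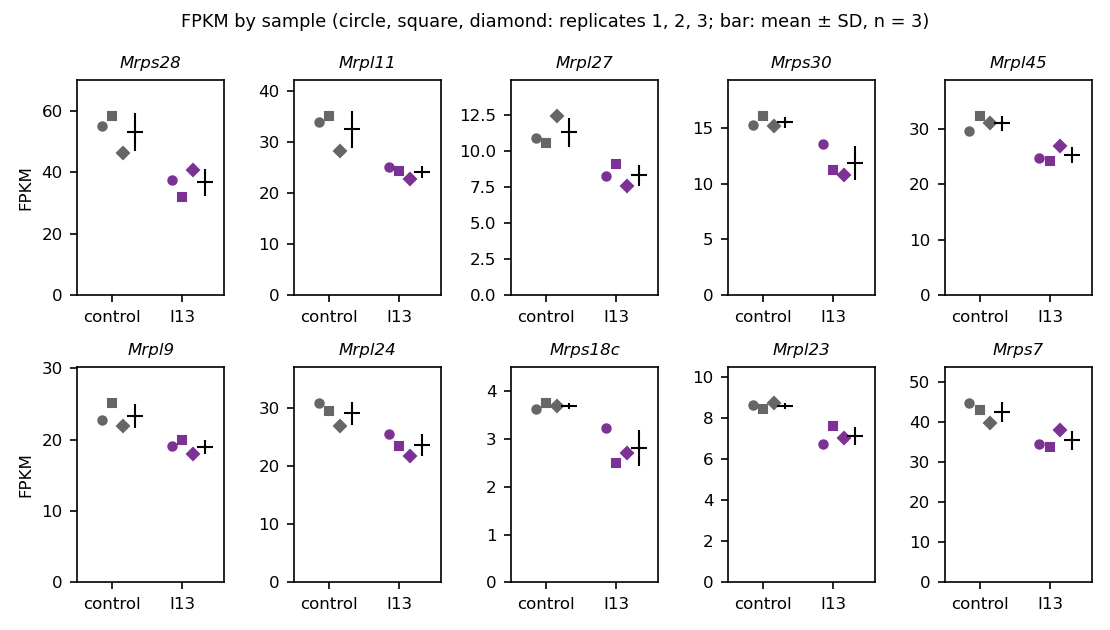
FPKM (y axis, from 0) of the 10 mitoribosomal genes with the smallest p, by sample, in the 3 control and 3 I13 samples, with a symbol for each replicate number and the mean ± SD beside each group. In every panel the 3 I13 points lie below the 3 control points, for Mrps28 at 32.0 to 40.7 against 46.5 to 58.5 FPKM.

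Mrps30 and Mrps18a are named for the small subunit, but the proteins sit in the large one. Mrps30 was at 15.3, 16.1 and 15.2 FPKM in the controls and at 13.6, 11.2 and 10.7 FPKM after I13, a log2 fold change of -0.39 (SE 0.11, limma adjusted p 0.155). The I13 samples of Mrps30 spread more widely than its controls. Mrps18a, Mrps18b and Mrps18c are related copies of a bacterial small subunit protein, and their mRNAs differed in level and in position. Mrps18a was at 18.6 ± 1.04 FPKM in the control and 16.5 ± 0.604 FPKM after I13, and Mrps18b at 17.2 ± 2.33 and 16.4 ± 0.772 FPKM (SD, n = 3 each). Mrps18c was the least abundant of the 3, at 3.62, 3.74 and 3.69 FPKM in the controls and at 3.22, 2.50 and 2.71 FPKM after I13. Their log2 fold changes were -0.17 (SE 0.09), -0.06 (SE 0.12) and -0.39 (SE 0.13), and the difference between the copies was not tested. Mrps18c rested on only 45 to 71 fragments in a library.

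A few large subunit genes stood on the other side. Mrpl52, a protein that mitochondria added to the large subunit, was at 26.8, 26.4 and 21.4 FPKM in the controls and at 28.2, 31.5 and 32.0 FPKM after I13. All its I13 samples were above all controls, with a log2 fold change of 0.30 (SE 0.12, limma adjusted p 0.231). Mrpl13, which has a bacterial counterpart, was at 11.6, 13.7 and 11.1 FPKM in the controls and at 15.3, 15.7 and 12.8 FPKM after I13, a log2 fold change of 0.26. Its I13 replicate 3 lay below control replicate 2, so the groups overlapped, but within each pair the I13 sample was the higher one. Mrpl50 and Mrpl47, both of the large subunit, had log2 fold changes of 0.21 (SE 0.14) and 0.20 (SE 0.20), and their groups overlapped.

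Mrpl34, a small basic protein of the large subunit, had the highest FPKM of the family and was also one of the most uneven genes. It was at 130, 89.2 and 57.8 FPKM in the controls and at 89.1, 108 and 107 FPKM after I13. The I13 samples lay inside the range of the controls, and the log2 fold change of 0.21 (SE 0.27) was -0.0934 without control replicate 3. Mrpl12 and Mrpl34 had the largest spread among controls of the 76 genes tested, with an SD of 0.628 and 0.587 on the log2 scale, and in both control replicate 1 was the highest and control replicate 3 the lowest of the 6 samples. For the family the median of this SD was 0.137 in the control and 0.0917 in the I13 samples. In 32 of the 76 genes it was larger in the control than the size of the log2 fold change. Across the 76 genes the SD among controls and the log2 fold change had a Pearson r of 0.42 and a Spearman rho of 0.29, a description of genes that share the same 6 libraries, and both measures use the control values.

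**Figure D4:**
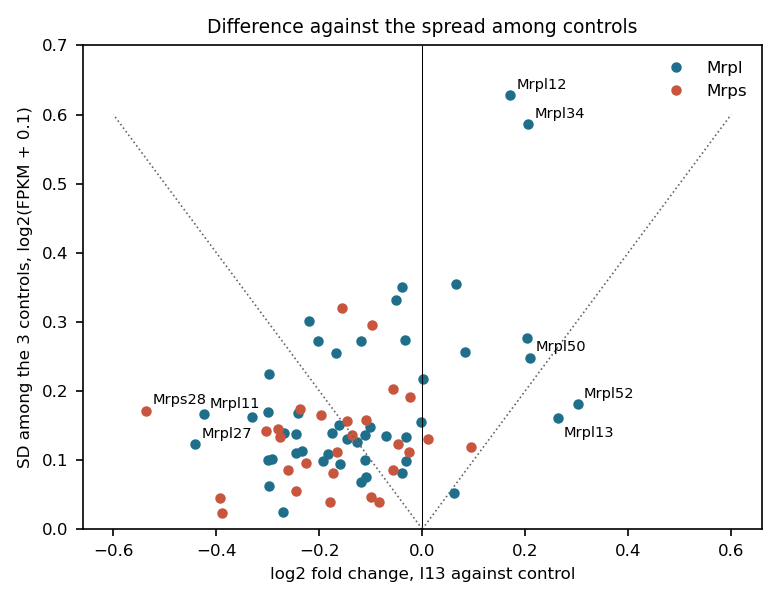
Log2 fold change (x axis, I13 against control) and SD among the 3 controls on the log2(FPKM + 0.1) scale (y axis) of the 76 mitoribosomal genes, with dotted lines where the SD equals the size of the fold change. Genes above the lines, 32 of 76, differ between the groups by less than 1 SD of their controls, with Mrpl12 and Mrpl34 at the top at 0.628 and 0.587.

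The mean levels of the 76 genes over the 6 samples ran from 1.06 to 97 FPKM with a median of 19 FPKM, and 60 of them were at 10 FPKM or more. After Mrpl34 the highest in FPKM were Mrps21 at 83.3 FPKM, Mrpl16 at 73.8 FPKM, Mrps16 at 67 FPKM and Mrpl2 at 60.7 FPKM. Mrpl34 and these genes had recovered lengths of 566 to 1170 bases, against a median of 2143 in the family. The order depends on these lengths, because Mrpl30 had 12670 recovered fragments over the 6 libraries and Mrpl34 had 6167. Mrps21 and Mrps16 belong to the small subunit and Mrpl16 and Mrpl2 to the large one, and all 4 have bacterial counterparts. Mrpl16 was lower in every I13 sample, at 65.3 to 69.1 FPKM against 72.8 to 88.3 FPKM in the controls, a log2 fold change of -0.27 (SE 0.10). Mrps16 was at 69.4 ± 2.22 FPKM in the control and 64.7 ± 1.82 FPKM after I13 (SD, n = 3 each), and Mrpl2 at 62.2 ± 13.4 and 59.1 ± 2.19 FPKM, with control replicate 3 of Mrpl2 far below the other controls at 47 FPKM. Mrps21 was at 86.8 to 91.2 FPKM in the controls and at 72.7 to 87.6 FPKM after I13, and only its I13 replicate 3 reached into the range of the controls.

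At the lower end, Mrpl33 was at 1.06 FPKM over the 6 samples, Mrpl48, of the central protuberance of the large subunit, at 3.13 FPKM and Mrps35, a protein that mitochondria added to the small subunit, at 4.12 FPKM. Their recovered lengths were 7326, 8152 and 8631 bases, whereas Mrps18c, at 3.245 FPKM, had 1076. The groups of Mrpl33 overlapped, with a log2 fold change of -0.04 (SE 0.22). Mrps35 was at 4.38, 5.10 and 4.22 FPKM in the controls and at 3.62, 4.02 and 3.40 FPKM after I13, a log2 fold change of -0.30 (SE 0.13). Mrpl48 had a log2 fold change of -0.17 (SE 0.16). A processed pseudogene, Mrpl48-ps, was listed at 12.5 to 22.6 FPKM, well above the 2.67 to 3.67 FPKM of Mrpl48, so the level of Mrpl48 is uncertain. Mrps34, a small subunit protein, was the single gene of the 77 under the limit of 0.5 FPKM and was not tested. It had 11, 6 and 2 recovered fragments in the controls and 7, 3 and 3 fragments in the I13 samples, too few to show a difference.

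Large and small subunit genes both lay below the control, and their difference was not tested. Among the 48 Mrpl genes tested the median log2 fold change was -0.123, and 38 were below 0, 13 of them at an unadjusted p below 0.05. Among the 28 Mrps genes the median was -0.16, and 26 were below 0, 8 of them at an unadjusted p below 0.05. Over all genes tested 50.8% were below 0 and 10.8% were lower at that limit. Without control replicate 2 the share over both subunits was at the background, 7.89% against 8.23%. Every Mrps gene was lower in the I13 sample of replicate 2 than in control replicate 2. The 2 Mrps genes above 0 were Mrps9 and Mrps36, and the latter was given to a different complex after it was named, the 2-oxoglutarate dehydrogenase of the citric acid cycle. Mrps36 had a log2 fold change of 0.10 (SE 0.10). Without control replicate 3 the medians of the large and small subunit genes were -0.21 and -0.23. The typical level was higher for the large subunit, with a median of 26.9 FPKM over its genes against 14.4 FPKM for the small subunit, although the proteins occur together in the assembled ribosome.

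The 45 proteins with a bacterial counterpart had a median log2 fold change of -0.161, and 39 were below 0. The 31 classed as mitochondrial additions had a median of -0.118, and 25 were below 0. This class also held Mrps18a and Mrps18b, copies of a bacterial protein, and Mrps36, since given to a different complex. Mrps12, of the decoding site of the small subunit and among the most conserved of these proteins, was at 48.4 ± 6.21 FPKM in the control and 47.4 ± 1.73 FPKM after I13 (SD, n = 3 each), with a log2 fold change of -0.02 (SE 0.11) whose sign changed with the scaling. Mrpl44, an added protein related to a family of ribonucleases, was at 28.7 ± 1.97 and 25.1 ± 1.15 FPKM, and its groups did not overlap. Across the 76 genes the log2 fold change had a Pearson r of 0.083 with the log2 mean level and of 0.013 with the log2 gene length.

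Some subunits of the mitochondrial ribosome carry other names. Of 6 listed, 5 were tested and 4 had a log2 fold change below 0, 2 of them at an unadjusted p below 0.05, against 10.8% of all genes tested. Chchd1, of the small subunit, was at 84.9, 81.6 and 74.0 FPKM in the controls and at 62.2, 59.4 and 61.1 FPKM after I13. Its log2 fold change was -0.39 (SE 0.09, limma adjusted p 0.113, or 0.0513 in the blocked fit and 0.0266 with the block and voom), and the groups lay well apart. With the block and voom 12.4% of all genes had an adjusted p below 0.05. Dap3, the GTP-binding protein of the small subunit, was at 19.0 ± 1.34 FPKM in the control and 15.8 ± 0.609 FPKM after I13 (SD, n = 3 each), with a fold change on the log2 scale of -0.26.

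Of 30 genes for the assembly of the ribosome and the modification of its RNA, 28 were tested and 23 were below 0, with a median log2 fold change of -0.205. The median deviation of the 28 was -0.0435 in control replicate 3 and 0.00184 in I13 replicate 2, so the groups overlapped in this value. At an unadjusted p below 0.05, 7 were lower and none higher, against 10.8% and 7.79% of all genes tested. Eral1, a chaperone of the small subunit RNA, was at 17.3, 17.2 and 14.9 FPKM in the controls and at 13.2, 13.4 and 12.4 FPKM after I13, a log2 fold change of -0.33 (SE 0.10). C1qbp, a matrix protein needed for mitochondrial translation, was at 80.2 ± 9.33 and 63.8 ± 1.40 FPKM (SD, n = 3 each), with a fold change on the log2 scale of -0.32. Neither gene had an adjusted p below 0.05 in limma, with or without the block, but both had one with the block and voom, at 0.0471 and 0.0384. So did 12.4% of all genes in that fit. The count of 7 was 1 without control replicate 2 and 2 without control replicate 1. Over all genes 8.23% and 7.42% were lower in these fits, so the assembly genes were not above the background there. The count was 3 without I13 replicate 3 and 4 without I13 replicate 1 or 2, against 9.84%, 6.73% and 8.5% of all genes.

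The 17 mitochondrial tRNA synthetases, which load amino acids onto the tRNAs of the organelle, had a median log2 fold change of -0.245. Of these, 11 were below 0, 7 of them at an unadjusted p below 0.05, and none was higher at that limit. Over all genes tested 10.8% were lower and 7.79% higher. The median of the synthetases was -0.106 without control replicate 2 and -0.124 without I13 replicate 3, and the count of 7 was 4 without I13 replicate 1. Their median deviation was -0.0263 in control replicate 3, below the -0.00786 and -0.00358 of I13 replicates 1 and 2, so the groups overlapped in it. Fars2, for phenylalanine, was at 7.65, 7.15 and 8.28 FPKM in the controls and at 4.78, 5.05 and 5.38 FPKM after I13. Its log2 fold change was -0.59 (SE 0.11, limma adjusted p 0.0989, or 0.045 in the blocked fit). Lars2, for leucine, was at 22.8, 24.5 and 21.4 FPKM in the controls and at 17.2, 16.0 and 12.8 FPKM after I13, a log2 fold change of -0.58 (SE 0.13, limma adjusted p 0.113, or 0.045 in the blocked fit). In the blocked fit both genes fell, and both reached the limit of 0.58, which neither did with median-ratio scaling.

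Of 18 translation factors and their partners, 17 were tested, 12 were below 0 and the median log2 fold change was -0.083, which was -0.0194 without control replicate 2, -0.173 without control replicate 3, -0.172 without I13 replicate 2 and -0.133 without I13 replicate 1. At an unadjusted p below 0.05, only Oxa1l was lower, 5.88% of the 17 against 10.8% of all genes tested. In the blocked fit 5 genes were lower and 1 higher, against 14.8% and 13.2% of all genes. Oxa1l inserts the new chains into the inner membrane beside Mrpl45, and was at 19.4, 19.4 and 17.7 FPKM in the controls and at 13.5, 13.6 and 13.9 FPKM after I13. Its log2 fold change was -0.46 (SE 0.09, limma adjusted p 0.104, or 0.0496 in the blocked fit). Mtif3, an initiation factor, was at 3.64 ± 0.465 and 2.86 ± 0.465 FPKM (SD, n = 3 each).

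The genes for copying and transcribing mitochondrial DNA, 10 in all, had a median log2 fold change of -0.0916. None passed an unadjusted p of 0.05 in either direction, while 10.8% of all genes tested were lower and 7.79% higher. In the blocked fit 2 were lower and 1 higher, against 14.8% and 13.2% of all genes, which is close to the background for 10 genes. Polg, the DNA polymerase of mitochondria, was at 10.5 ± 0.48 FPKM in the control and 8.77 ± 1.23 FPKM after I13 (SD, n = 3 each). Tfb2m, a transcription initiation factor, was at 15.9 ± 2.66 and 19.0 ± 1.38 FPKM. Of 11 nuclear regulators, 10 were tested, with a median log2 fold change of -0.00926. Myc was the gene of this list with the smallest p and was at 142, 170 and 133 FPKM in the controls and at 195, 222 and 159 FPKM after I13. I13 replicate 3 lay below control replicate 2, and the log2 fold change was 0.37 (SE 0.15, limma adjusted p 0.252, or 0.052 in the blocked fit and 0.0167 with the block and voom). In the last of these fits 12.4% of all genes were under 0.05. Gabpb2, a subunit of the factor GABP, had a log2 fold change of -0.31 (SE 0.16).

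Of the mRNAs that the mitochondrial ribosome translates, more lay above the control than below it, unlike those of its proteins. Of 13 such mRNAs 12 were tested, and 8 were above 0 and 4 below, with a median log2 fold change of 0.151 that was -0.0246 without I13 replicate 1. With the block and voom 7 were above 0 and 5 below. Among the 8, mt-Nd1 was at 0.001, and mt-Nd4l and mt-Nd3 rested on 9 to 30 and 9 to 23 fragments in a library. Among the 4, mt-Co2, mt-Co3 and mt-Atp6 had means of only 38.4, 13.4 and 7.6 FPKM. The median deviation of the 12 was 0.215, -0.153 and -0.187 in control replicates 1, 2 and 3. In I13 replicates 1, 2 and 3 it was 0.142, 0.0973 and -0.123, so the groups overlapped and control replicate 1 was the highest sample. Within replicate 1, 7 of the 12 were lower in the I13 sample, and within replicates 2 and 3, 4 each. At an unadjusted p below 0.05, 3 of the 12 were higher and 1 was lower, against 7.79% and 10.8% of all genes tested. The gene mt-Nd5, of complex I, was at 1710, 1405 and 1590 FPKM in the controls and at 2009, 2188 and 1983 FPKM after I13, a log2 fold change of 0.40 (SE 0.10, limma adjusted p 0.131, or 0.0717 in the blocked fit and 0.0185 with the block and voom). Among all genes 12.4% had an adjusted p below 0.05 with the block and voom. The gene mt-Co3 had a log2 fold change of -0.35 (SE 0.09) at 11.3 to 16.1 FPKM, far under the 8932 to 11364 FPKM of mt-Co1. Parts of mitochondrial DNA have near-identical copies in the nuclear genome, and how fragments common to both were counted is not given in the sources used here.

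**Figure D5:**
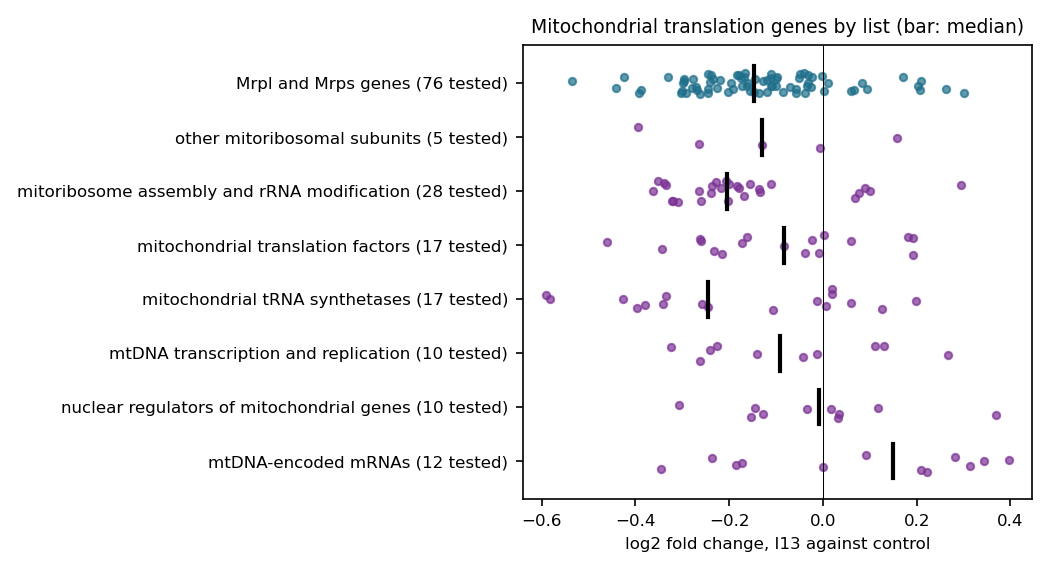
Log2 fold change (x axis, I13 against control) of the 76 Mrpl and Mrps genes and of the genes of 7 related lists, 1 point a gene, with a bar at the median of each list and the number tested beside its name. The medians are -0.146 for the Mrpl and Mrps genes, -0.205 for the assembly genes and -0.245 for the tRNA synthetases, and 0.151 for the mRNAs encoded in mitochondrial DNA.

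Genes of the cytosolic ribosome and of respiratory complex I had medians close to that of the mitochondrial ribosome. Of 76 cytosolic ribosomal protein genes tested, 71 were below 0 with a median log2 fold change of -0.184, and 26 were lower and 1 higher at an unadjusted p below 0.05. Of 36 complex I subunit genes named Nduf, 30 were below 0 with a median of -0.152, and 9 were lower and 1 higher at that limit. For both families the shares of all genes tested were 10.8% lower and 7.79% higher. In the blocked fit the lower genes of these families numbered 44 and 14, against 14.8% of all genes. With median-ratio scaling they numbered 7 and 9, against 9.45%, which is the background level for the cytosolic genes. For the cytosolic genes the count was 6 without control replicate 1 or I13 replicate 2, against 7.42% and 8.5% of all genes, again the background level. It was 9 without control replicate 3 and 11 without I13 replicate 1, against 9.56% and 6.73% of all genes. The samples were ordered differently in the cytosolic and mitochondrial families, however. The median deviation of the cytosolic ribosomal genes was 0.14, -0.0123 and 0.133 in control replicates 1, 2 and 3 and -0.0561, -0.186 and -0.0282 in the I13 replicates. Control replicate 2 was thus the lowest control for the cytosolic ribosome and the highest for the mitochondrial one, and control replicate 3 stood high for the former and low for the latter. In both families the same-numbered I13 sample was below its control for each of the 3 numbers. Whether the families differ in their response was not tested.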

How the data were processed

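The authors deposited FPKM values of mouse genes for 6 stranded mRNA libraries, 1 column a library. The submitters' processing notes name Trimmomatic, HISAT2, Cufflinks, HTSeq and the build hg38, and the labels give the organism as human, whereas the gene identifiers are those of mouse, so no coordinates are given. A mouse reference was not used here, and no sequences are printed. Whole fragments and gene lengths were recovered from the FPKM within a tolerance of 0.005 fragments for 22412 of 22413 genes and all 77 mitoribosomal genes. In simulated data 59.1% of 2862 genes were recovered exactly, and 1471 of the 1500 with at least 10 fragments in every library. The 76 genes tested here had at least 45. Fragments and lengths of weaker genes, such as Mrps34, may be too small by a whole factor. The library totals set the precision of low genes, and intervals were not computed.

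Fits used limma 3.58.1 in R 4.3.3 with eBayes and a trend. The fit was also run on simulated data, which were drawn without a pair effect. That run therefore cannot show whether the plain or the blocked fit suits these libraries. Control and I13 samples of the same number had correlations across genes of 0.145, 0.301 and 0.219 in their deviations from the group means, and differently numbered samples -0.258 to 0.0503. All 3 exceeded 0.1, and on that ground, with the numbering in the labels, samples of equal number were treated as pairs. No 2 libraries of a group agreed within counting noise (chi-square of at least 16.5 per degree of freedom).

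Genes were named by smallest p (10), largest and smallest log2 fold change and level (5 each way), role in the ribosome, or an adjusted p below 0.05 with or without the block, and in related lists the 2 with the smallest p. The related lists and roles were written by hand. Members and lists were chosen with earlier results of these data known. Mrpl3, Mrpl30, Mrps9, mt-Co1, mt-Co2, mt-Atp6, mt-Nd1, mt-Nd3 and mt-Nd4l were named after their values were seen, as was the gap between gene families by sample. The block without 1 pair was chosen after seeing the data.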

Additional observations from a re-analysis of the deposited data

How the results depend on the processing

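The mitoribosomal genes past both thresholds numbered 0 in every fit, and those with an adjusted p below 0.05 numbered 0 in every fit but that with the replicate block and voom on the recovered fragments, where there were 5. The count lower at an unadjusted p below 0.05, 21 in the reported fit, was 9 with the FPKM rescaled to TPM and 6 to 23 without 1 sample. With the replicate block it was 25, and 5 to 19 without 1 pair, lowest without replicate 2. The count higher, 1 in the reported fit, was 2 with median-ratio scaling and in the 3 fits with the replicate block, with a length correction, with voom or with neither, 0 with eBayes without a trend, 0 to 3 without 1 sample and 1 to 3 without 1 pair. The fits without 1 sample or 1 pair rest on fewer samples, and the cause of the differences between the fits was not tested. Genes with a log2 fold change below 0 numbered 57 to 68 over all fits. The median log2 fold change, -0.146, was -0.215 to -0.118 without 1 sample. For the large subunit genes it was -0.123 in the reported fit and -0.21 to -0.0969 without 1 sample, and for the small subunit genes -0.16 and -0.23 to -0.132.

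Of the 29 named genes tested, 6 changed sign in a fit. Without 1 sample the log2 fold change ran from -0.145 to 0.483 for Mrpl12, -0.242 to 0.0639 for Mrpl2, -0.156 to 0.0509 for Mrpl33, -0.0934 to 0.493 for Mrpl34, -0.132 to 0.0488 for Mrps12 and -0.174 to 0.00449 for Mrps18b. The list medians ran from -0.209 to 0.0125 for the genes of mitochondrial DNA transcription, -0.0246 to 0.245 for the mRNAs encoded in mitochondrial DNA and -0.104 to 0.0938 for the nuclear regulators, whose median was 0.0104 with median-ratio scaling. With the FPKM rescaled to TPM and with quantile normalization that of Mrps12 was 0.00504 and 0.00303. With the replicate block and voom, Mrpl11, Mrpl3, Mrps28, Mrpl24, Mrpl9, Chchd1, Eral1, C1qbp, Myc, mt-Nd5, mt-Co1 and mt-Rnr1 gained an adjusted p below 0.05, and Fars2, Lars2 and Oxa1l had one too. Passing was common in that fit, where 12.4% of all genes had an adjusted p below 0.05. Without voom the replicate block brought Fars2, Lars2 and Oxa1l past an adjusted p of 0.05 and changed no other call of a named gene. In that fit 2.99% of all genes passed. The block without 1 pair was tried after seeing the data.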

Other observations

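The RNA of the mitochondrial ribosome is encoded in mitochondrial DNA, and both of its rRNAs were listed although the libraries were made from mRNA. The small subunit rRNA, mt-Rnr1, was at 260, 196 and 201 FPKM in the controls and at 169, 156 and 166 FPKM after I13. Every I13 sample lay below every control, with a log2 fold change of -0.41 (SE 0.12) and a limma adjusted p of 0.161, or 0.0635 in the blocked fit and 0.0218 with the block and voom. With the block and voom 12.4% of all genes were under 0.05. The large subunit rRNA, mt-Rnr2, was at 463, 405 and 364 FPKM in the controls and at 479, 410 and 400 FPKM after I13, and its groups overlapped. Its log2 fold change was 0.07 (SE 0.12), and the difference between both rRNAs was not tested.

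Processed pseudogenes of the family were listed beside their parent genes. Mrpl48-ps was at 22.6, 17.5 and 12.5 FPKM in the controls and at 15.4, 14.4 and 13.2 FPKM after I13, and as in Mrpl12 and Mrpl34 control replicate 1 was the highest and control replicate 3 the lowest of the 6 samples. Mrps36-ps1 and Mrps36-ps2 stayed under 1 FPKM in every sample.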
